A study of Mus musculus with 6 samples.

Results

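The genes described here encode the membrane traffic machinery of the cell: Rab GTPases and their direct regulators, SNARE proteins (syntaxins, SNAPs and VAMPs), syntaxin-binding proteins, synaptotagmins, synapsins, synaptogyrins and the exocyst. Membership was set by the form of the gene symbol, and 108 of the 12151 genes in the deposited expression table matched. The libraries are bulk RNA-seq of cultured mouse glioma cells in 2 groups of 3 libraries. The cells named mNS grew as neurospheres, floating clusters used to culture neural stem cells, in serum-free DMEM/F12 with B-27 supplement, basic FGF, EGF and heparin, and are labelled as stem-like glioma cells. GL261, a mouse glioma line, grew in DMEM with 10% fetal bovine serum and is labelled as differentiated glioma cells. The mNS libraries are from passages 72, 77 and 85, and those of GL261 from passages 17, 33 and 34 (for the last, the passage field reads 33 and the title 34). Cell line, medium and passage range change together between the groups and cannot be told apart. Beyond the passage, no label says whether the 3 libraries of a group are of independent cultures, and p-values then measure only how far these libraries spread, which may be technical. The sources used here do not give the origin of the mNS cells.

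Rab GTPases switch between a GTP-bound and a GDP-bound state and mark the identity of each membrane compartment, where they recruit tethers and motors. SNARE proteins on a vesicle and on its target membrane zip into a bundle that drives fusion, and Sec1/Munc18 proteins hold syntaxins ready for it. In neurons and endocrine cells the final step is held back until calcium binds a synaptotagmin, and the best known neuronal fusion complex includes Stx1a, Snap25 and Vamp2. All cells use the same families for traffic between the Golgi, endosomes, lysosomes and the surface.

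Values are in CPM, reads scaled by the authors to a common library size, and are listed in the order of passage within each group. Depth in the listed genes lay between 12534422 and 14225175 reads, which puts a single read at 0.0708 to 0.0773 CPM. Of 14 neuronal markers, 5 were in the table, and their summed level lay between 721 and 791 CPM in mNS, against 535 to 582 CPM in GL261. Map2, Gap43 and Uchl1 were called higher in mNS and Tubb3 and Ncam1 lower, while Dcx, Rbfox3, Syp and Stmn2 were among those not listed in the table used here. Of 8 neural stem and glioma stem-like markers, 7 were listed, with 4 called higher in mNS (Olig1, Olig2, Fabp7, Msi1) and 2 lower (Nes, Cd44). Sox2 was not called, and Prom1 was not listed in the table used here. The stem-like label was therefore met by some of its markers and not by others. Markers of differentiated glia also went both ways: 3 of 5 listed oligodendrocyte markers were called higher in mNS and 2 lower, with a summed level of 456 to 491 CPM in mNS, against 1225 to 1331 CPM in GL261. Of 5 listed astrocyte markers, 2 were called higher in mNS and 3 lower, at 307 to 361 CPM in mNS, against 240.5 to 325 CPM in GL261. Among 10 genes for dense-core cargo, 3 were listed, Cpe called lower and Nts higher in mNS, with a summed level of 356 to 402 CPM in mNS, against 669 to 734 CPM in GL261. Microglia and macrophage markers summed to 6.87 to 9.51 CPM in mNS and 4.05 to 5.44 CPM in GL261, with 2 of 8 listed and Ptprc and Aif1 not listed. Cd68 carries that sum in mNS, at a mean of 8.09 CPM in mNS and 2.95 CPM in GL261, while Csf1r averaged 0.0488 CPM in mNS and 1.68 CPM in GL261. Fewer cells of a type and less RNA per cell cannot be told apart in such bulk samples. The part of these markers in the results that follow was not tested.

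Among the trafficking genes, 41 of 103 tested rose in mNS and 22 fell, at an adjusted p under 0.05 in a limma fit over all genes. The calls cover 39.8% of them upward and 21.4% downward, beside 32.2% and 32.1% of all 12006 tested genes. In either direction 61.2% were called, close to the 64.3% of all genes, so being called was no more common here than elsewhere in the table. The median log2 difference, mNS minus GL261 on the log2(CPM + 1) scale, was 0.18 for these genes and -0.0027 for all genes. The median size of the difference was 0.42 on the same scale, against 0.40 for all genes. The values of both groups did not overlap for 63 of the 103 tested, or 61.2%, beside 69.9% of all genes. Most called differences were small: 46 of 63 were under 1 on the log2 scale. Only 12 genes rose by at least 1 on that scale, a size that 11.3% of all genes reached upward, and 5 fell by at least 1, which 8.47% of all genes reached downward; the upward count is near that background. A further 5 genes (Rab3b, Rab9b, Rab11fip1, Rab42 and Rab44) had a mean under 1 CPM and were not tested. Counts by family are to be read beside the shares of all genes given here. The same 61 calls, with the same direction, came from edgeR's quasi-likelihood test on the recovered reads; Rab27a and Stxbp3b were not called there.

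**Figure D1:**
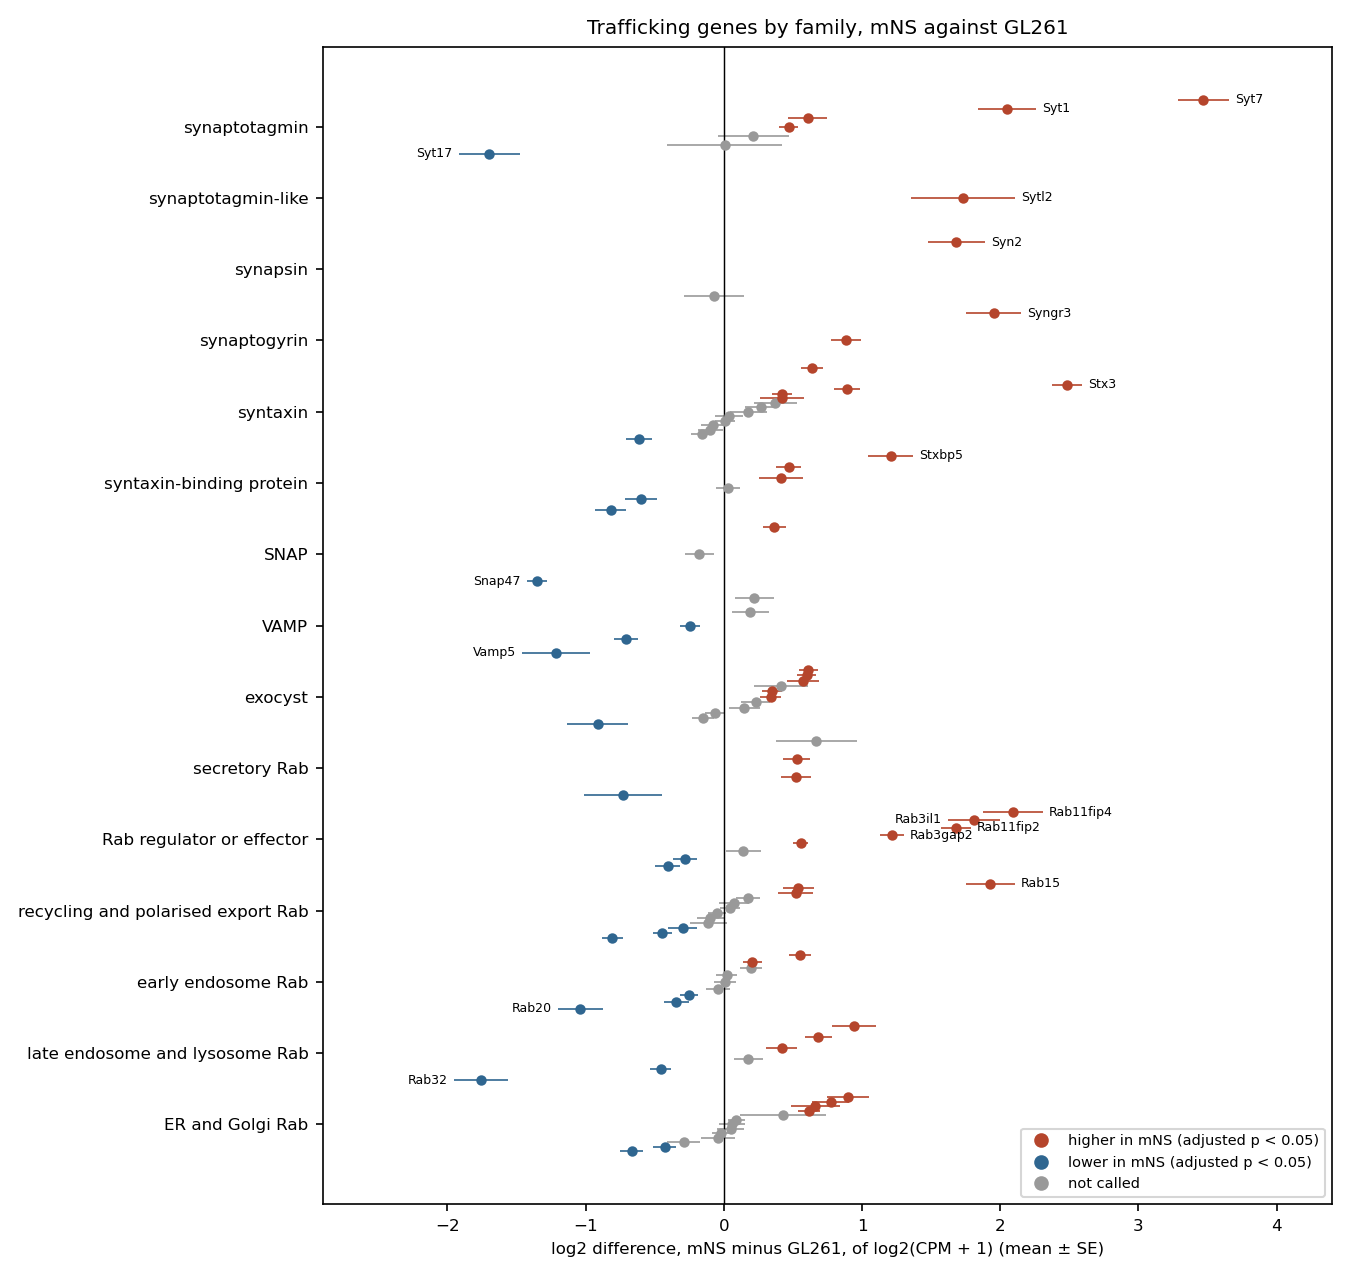
Log2 difference (mNS minus GL261, of log2(CPM + 1)) of the 103 tested genes by family, as points with SE bars, in red where called higher in mNS, in blue where called lower and in grey where not called. Syt7 (3.47) and Stx3 (2.48) lie farthest to the right and Rab32 (-1.76) farthest to the left, while most genes lie within 1 of 0.

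Genes of neuronal exocytosis were set apart from those that all cells use. Of 30 genes on the neuronal list, 17 were in the table and 13 were not listed in it, among them Snap25, Syn3, Rab27b and Syt2. Of the 17, Rab3b was below the filter and 3 of the 16 tested (Syt1, Syt7 and Syn2) passed it only through mNS, where they are high, so the counts describe the genes tested and not the whole list. Among those, 9 of 16 rose in mNS, 1 fell and 6 were not called, with a median log2 difference of 0.50. The 62.5% called in either direction lies near the 64.3% of all genes. In a count chosen after the data were seen, with both group means held to at least 1 CPM, 6 of 13 were called higher and 1 lower, and the median was 0.22. General traffic genes had 29 of 80 called higher, 18 lower and 33 not called, or 58.8% called, with a median of 0.082. The 7 genes of other regulated secretion had 3 called higher (Rab3d, Stx11, Sytl2), 3 lower (Rab27a, Stxbp2, Syt17) and 1 not called (Rab37). In either direction 85.7% of them were called, beside 64.3% of all genes. Syt17 passed the filter only through GL261 and Rab37 only through mNS, so no count over these 7 genes is read. Whether the lists differ from each other was not tested.

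**Figure D2:**
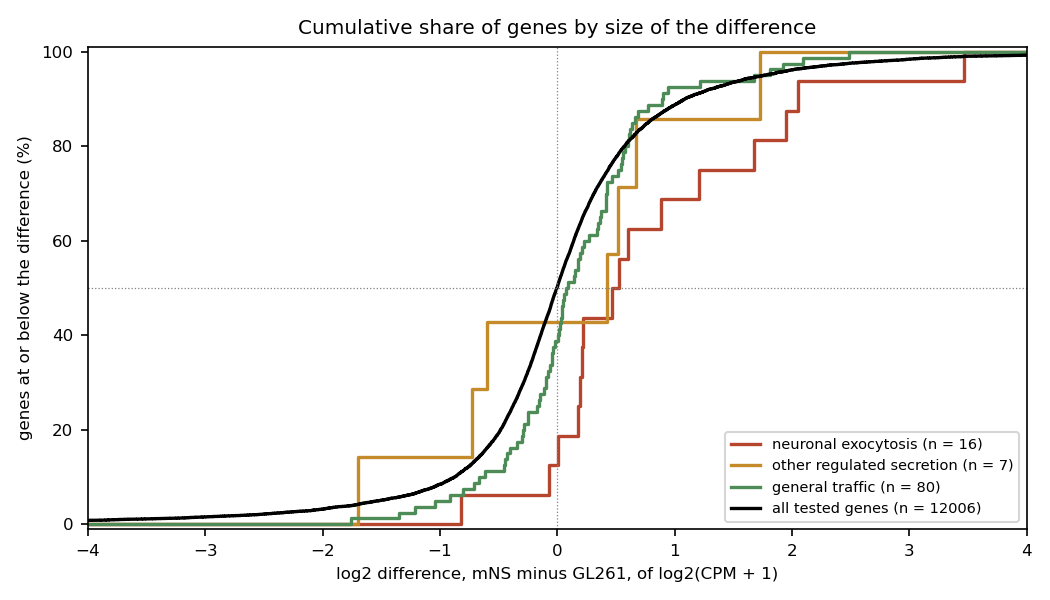
Cumulative share of genes (vertical axis, percent) at or below each log2 difference, mNS minus GL261 of log2(CPM + 1) (horizontal axis), for the tested genes of neuronal exocytosis, other regulated secretion and general traffic and for all 12006 tested genes; differences beyond the axis ends are not drawn. The medians are 0.50 for neuronal exocytosis, 0.42 for other regulated secretion, 0.082 for general traffic and -0.0027 for all genes.

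Promoters from RefSeq's promoter table are shown here as examples for Syt1 and Stx3, which rose, and Snap47 and Rab32, which fell. Some genes with larger differences, such as Syt7, are not shown. Each runs 5′ to 3′ on the gene's strand from 250 bases before to 50 bases after the start, in build GRCm38.p6, and capitals mark motifs.
Syt1 (chr10:109010926-109011225, minus strand): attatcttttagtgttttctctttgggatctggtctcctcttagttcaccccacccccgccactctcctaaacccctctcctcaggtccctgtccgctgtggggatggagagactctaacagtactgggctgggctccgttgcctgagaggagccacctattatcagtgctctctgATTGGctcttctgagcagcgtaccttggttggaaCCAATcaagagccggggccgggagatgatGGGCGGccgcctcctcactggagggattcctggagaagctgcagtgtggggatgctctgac
Stx3 (chr19:11819354-11819653, minus strand): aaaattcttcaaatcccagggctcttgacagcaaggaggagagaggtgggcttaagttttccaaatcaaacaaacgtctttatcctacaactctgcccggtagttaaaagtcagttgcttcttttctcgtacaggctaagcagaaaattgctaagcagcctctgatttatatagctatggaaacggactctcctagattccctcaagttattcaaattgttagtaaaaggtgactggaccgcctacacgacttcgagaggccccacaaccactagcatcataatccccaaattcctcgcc
Snap47 (chr11:59449985-59450284, minus strand): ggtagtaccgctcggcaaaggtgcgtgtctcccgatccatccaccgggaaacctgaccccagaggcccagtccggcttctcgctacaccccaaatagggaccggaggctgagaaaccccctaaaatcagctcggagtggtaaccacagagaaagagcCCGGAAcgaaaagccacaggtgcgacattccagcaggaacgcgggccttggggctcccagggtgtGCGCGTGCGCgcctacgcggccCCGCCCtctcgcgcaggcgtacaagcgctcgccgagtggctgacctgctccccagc
Rab32 (chr10:10558158-10558457, minus strand): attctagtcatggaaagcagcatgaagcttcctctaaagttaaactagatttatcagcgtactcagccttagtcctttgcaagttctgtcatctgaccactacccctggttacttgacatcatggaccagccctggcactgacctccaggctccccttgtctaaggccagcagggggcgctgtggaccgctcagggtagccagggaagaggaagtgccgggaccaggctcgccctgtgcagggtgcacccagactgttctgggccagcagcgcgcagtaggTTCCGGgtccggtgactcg
Motifs were searched on both strands as exact letters: the GC box GGGCGG, the CCAAT box CCAAT, the cyclic AMP response element TGACGTCA, the E-box CACGTG, the ETS core CCGGAA, the AP-1 motif TGANTCA and the palindromic NRF1 motif. They may overlap one another. The Syt1 window holds 2 CCAAT boxes and 1 GC box, that of Snap47 an ETS core, an NRF1 motif and a GC box, and that of Rab32 an ETS core. None of the 7 is in the Stx3 window, which says only that these letters are not there. Promoters were found for 88 of the 108 genes. The GC box was in 77.3% of them, beside 66.4% of the 9003 promoters of listed genes and 35.9% of all 27025 promoters. The E-box CACGTG was in 13.6%, beside 10.6% of listed genes and 7.24% of all. It was in 6 of the 18 promoters of genes that fell and 4 of the 34 of genes that rose, the widest gap of the 7 motifs. In genes that rose and fell, the GC box was in 79.4% and 72.2%, and the CCAAT box in 35.3% and 33.3%. The ETS core was in 23.5% and 27.8%, and the NRF1 motif in 14.7% and 16.7%. The cyclic AMP response element was in 2.94% and 5.56%, and the AP-1 motif in 2.94% and 0%. Whether any motif differs by direction was not tested. The CCAAT box was in 39.8%, beside 39.6% of listed genes, the ETS core in 27.3% beside 29.3%, and the NRF1 motif in 17.0% beside 10.95%. These are letter matches, with no measure of binding.

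Synaptotagmins, the calcium sensors of regulated fusion, include both the largest called rise and the second largest called fall. Syt7 (chr19:10389090-10453180, plus strand, GRCm38), a high-affinity sensor that acts in slow and delayed release and in lysosome fusion with the surface, had 14.2, 11.9 and 9.35 CPM in mNS, against 0.149, 0.299 and 0 CPM in GL261. Every mNS library lay above every GL261 library, with 474 reads in mNS and 6 in GL261. The ratio of mean CPM was 79.1-fold, with a counting interval of 36.4 to 218 at 95%, and 158-fold without GL261 replicate 2; log2 difference 3.47 ± 0.18 SE, adjusted p = 8.67e-07. A further gene, Syt1 (chr10:108497650-109010982, minus strand, GRCm38), the fast sensor of neurotransmitter release in neurons, had 4.83, 6.03 and 8.28 CPM in mNS, against 0.969, 0.897 and 0.433 CPM in GL261. The mNS libraries were all higher, by 8.33-fold in the mean (log2 difference 2.05 ± 0.21 SE, adjusted p = 4.50e-05). The GL261 values of both genes rest on few reads (6 for Syt7 and 31 for Syt1).

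Syt4 and Syt11, relatives that do not bind calcium as Syt1 does, were abundant in both groups. Syt4, found on the Golgi and dense-core vesicles in neurons, had 1905, 2025 and 1766 CPM in mNS, against 1390, 1422 and 1299 CPM in GL261. The mNS libraries were higher by 1.39-fold, without overlap (log2 difference 0.47 ± 0.07 SE, adjusted p = 3.69e-04). Per kb of transcript it was the most abundant gene of all 108, with 488 CPM per kb in mNS and 352 CPM per kb in GL261; the next, Rab1, had 107 and 144 CPM per kb. Syt4 alone made up 23.5% to 25.4% of the summed CPM of these genes in mNS, against 19.9% to 21.3% in GL261. Of the other synaptotagmins, Syt11 rose by 1.53-fold and had 224, 170.5 and 158 CPM in mNS, against 103, 126 and 131 CPM in GL261 (log2 difference 0.61 ± 0.14 SE, adjusted p = 0.0046). Syt12 and Syt6 were not called, with differences of 0.21 and 0.0062 on the log2 scale, and Syt6 changed sign with the scaling. Syt17 had 0.302, 0.309 and 0.142 CPM in mNS, against 2.01, 3.14 and 4.33 CPM in GL261, on 10 reads in mNS and 129 in GL261. It was 12.6-fold lower in mNS by mean CPM, with a counting interval of 6.73 to 27.3 (log2 difference -1.70 ± 0.22 SE, adjusted p = 1.85e-04). Syt7 and Syt1 passed the filter on low values only through mNS and Syt17 only through GL261, so no count over the synaptotagmins is read. Sytl2, a synaptotagmin-like effector that binds Rab27, rose and had 97.5, 69.9 and 66.3 CPM in mNS, against 10.7, 34.2 and 30.4 CPM in GL261. Its mNS libraries were all above those of GL261, among which the library of passage 17 was lowest; the mean ratio was 3.11-fold (log2 difference 1.73 ± 0.37 SE, adjusted p = 0.00344).

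Synaptogyrins and synapsins, which sit on or hold vesicles and are not part of the fusion bundle, were read by family. Syngr3, a synaptogyrin of synaptic vesicles, had 13.6, 15.5 and 15.2 CPM in mNS, against 1.94, 3.59 and 3.97 CPM in GL261. Its mNS libraries were all higher, 4.65-fold by mean CPM (log2 difference 1.95 ± 0.20 SE, adjusted p = 4.25e-05). Syngr1, its neuronal relative, had 50.7, 51.2 and 50.1 CPM in mNS, against 31.8, 26 and 23.6 CPM in GL261 (log2 difference 0.89 ± 0.11 SE, adjusted p = 1.39e-04), and Syngr2, the form used by other tissues, had 121, 132 and 145 CPM in mNS, against 89.7, 79.5 and 84.7 CPM in GL261 (log2 difference 0.64 ± 0.08 SE, adjusted p = 1.87e-04). All 3 synaptogyrins rose without overlap, beside 32.2% of all genes called higher and 69.9% of all genes without overlap. Syn2, a synapsin that tethers synaptic vesicles to one another, had 5.21, 4.18 and 3.19 CPM in mNS, against 0.522, 0.972 and 0.361 CPM in GL261. It rose 6.78-fold by mean CPM (log2 difference 1.68 ± 0.21 SE, adjusted p = 1.32e-04), with GL261 at a few reads per library, while Syn1 had 1.43, 0.928 and 0.991 CPM in mNS, against 1.64, 1.49 and 0.65 CPM in GL261 and was not called (log2 difference -0.073). The groups of Syn1 overlapped, and its sign changed without 1 of the libraries.

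Of the neuronal fusion SNAREs listed, none was called. Stx1a, the neuronal syntaxin of the surface membrane, had 20.3, 16.1 and 15.5 CPM in mNS, against 14.3, 14.1 and 17 CPM in GL261 (log2 difference 0.18 ± 0.13 SE, adjusted p = 0.269), and the groups overlapped. Vamp2, the main vesicle SNARE of neurons, had 4.53, 5.34 and 4.32 CPM in mNS, against 4.1, 4.34 and 3.32 CPM in GL261, with a log2 difference of 0.22 and no call, and its relative Vamp1 had 3.93, 3.56 and 4.25 CPM in mNS, against 2.98, 3.59 and 3.32 CPM in GL261 with no call either (log2 difference 0.19, sign changed under quantile scaling). Stxbp2, the Munc18 form of immune and epithelial secretion, fell and had 19.6, 19.9 and 22.3 CPM in mNS, against 36.5, 30.9 and 27.9 CPM in GL261 (log2 difference -0.60 ± 0.12 SE, adjusted p = 0.00186). Stxbp5, or tomosyn, which binds syntaxin and SNAP proteins and competes with VAMP, rose and had 65.9, 58.8 and 61.5 CPM in mNS, against 35, 24.4 and 21.2 CPM in GL261. It was 2.31-fold higher in mNS (log2 difference 1.21 ± 0.16 SE, adjusted p = 2.23e-04). Stxbp3a, the ubiquitous form, had 46.2, 47.2 and 49.99 CPM in mNS, against 31.1, 37.8 and 34 CPM in GL261 and was called higher (log2 difference 0.47 ± 0.09 SE, adjusted p = 0.00185). Stxbp3b, a near-identical copy annotated as a pseudogene, also passed the threshold (adjusted p = 0.049), lost the call in edgeR's quasi-likelihood test, in DESeq2 and under several other settings, and may share reads with Stxbp3a, so both are uncertain.

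The surface syntaxin of other cell types showed the largest difference among the SNAREs. Stx3 (chr19:11775118-11819403, minus strand, GRCm38), which serves apical delivery in epithelia and release at ribbon synapses and in mast cells, had 111, 108 and 118 CPM in mNS, against 21.7, 20.3 and 16.3 CPM in GL261. Every mNS library exceeded every GL261 library, by 5.79-fold in the mean (log2 difference 2.48 ± 0.11 SE, adjusted p = 2.59e-07). Of its relatives, Stx4a had 29.2, 26 and 24.6 CPM in mNS, against 27.6, 27.9 and 28.6 CPM in GL261 and was not called (log2 difference -0.077), and its sign changed when columns were scaled to a common sum. Stx2 had 62.3, 82 and 96 CPM in mNS, against 53.1, 61.4 and 68.8 CPM in GL261, overlapping between groups and not called (log2 difference 0.37), though it passed under DESeq2, the edgeR exact test, common-sum and quantile scaling and without mNS replicate 1. Stx11, a syntaxin of immune secretion, passed the threshold narrowly (adjusted p = 0.046) and lost the call under median centring, under quantile scaling and without GL261 replicate 1 or 2 or mNS replicate 2 or 3. Among the 13 syntaxins, 4 rose and 1 fell, or 38.5% called, beside 64.3% of all genes. Snap47, a SNAP relative of intracellular membranes, showed the largest called fall among the SNAREs and had 70.6, 71.8 and 77.4 CPM in mNS, against 175, 193 and 197 CPM in GL261. The groups were far apart, 2.57-fold lower in mNS (log2 difference -1.35 ± 0.07 SE, adjusted p = 8.06e-07). Its exons overlap Jmjd4 on the other strand. Snap23, the ubiquitous surface SNAP, had 47, 39.6 and 40.1 CPM in mNS, against 54.1, 45.8 and 43.8 CPM in GL261 with overlap and no call (log2 difference -0.18), and Snap29, the endosome and autophagosome form, had 38.8, 36 and 34.9 CPM in mNS, against 27.3, 29.7 and 27.5 CPM in GL261 and rose (log2 difference 0.36 ± 0.08 SE, adjusted p = 0.00467).

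**Figure D3:**
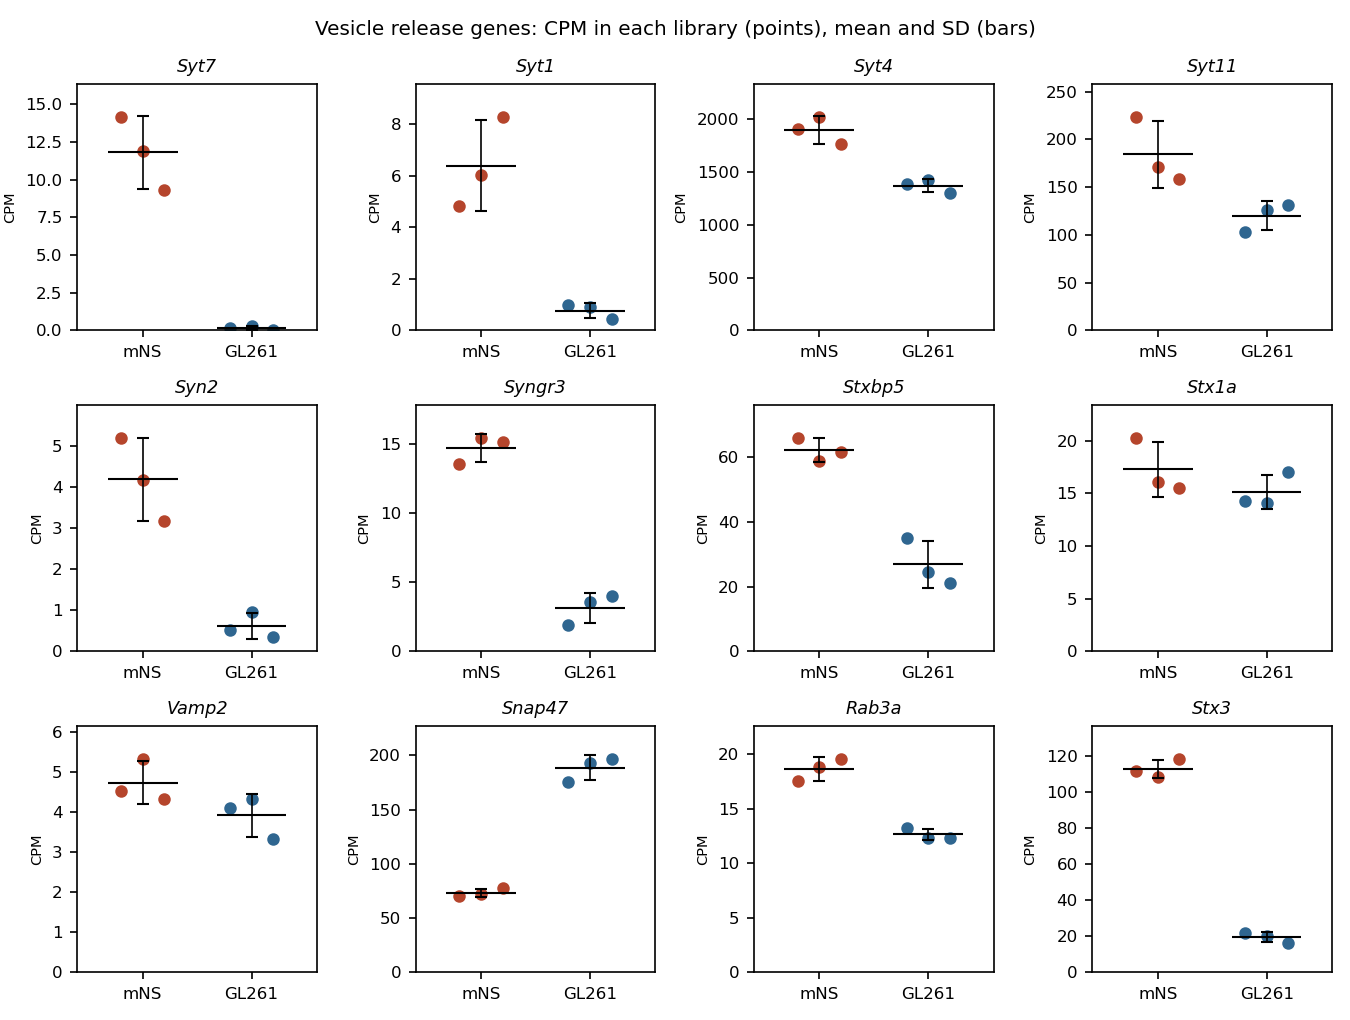
CPM in each library (points, in the order of passage), with the mean and SD (bars), of genes that act at release, mNS left and GL261 right. Syt7, Syt1, Syngr3, Syn2 and Stx3 are higher in all 3 mNS libraries, Snap47 is lower in all 3, and Stx1a overlaps between the groups.

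Of the 5 VAMP genes, 3 were called lower and none higher, or 60.0% called, near the 64.3% of all genes; the neuronal Vamp1 and Vamp2 were not called. Vamp5, which is enriched in muscle, had 4.98, 7.5 and 12 CPM in mNS, against 19.8, 19.7 and 18.1 CPM in GL261. It was 2.35-fold lower in mNS without overlap (log2 difference -1.21 ± 0.24 SE, adjusted p = 0.00234), and its mNS value was lowest at passage 72 and highest at passage 85. Vamp4, a SNARE of the trans-Golgi network and early endosome, had 15.9, 16.3 and 17.8 CPM in mNS, against 28.4, 27.5 and 27.7 CPM in GL261 and was 1.67-fold lower (log2 difference -0.71 ± 0.09 SE, adjusted p = 1.41e-04). Vamp3, the VAMP of recycling endosomes, was called lower (log2 difference -0.25 ± 0.07 SE, adjusted p = 0.0152) but lost the call under common-sum scaling (adjusted p = 0.081) and without GL261 replicate 2 (adjusted p = 0.062). Stx6, which works with Vamp4 in fusion at the trans-Golgi network, had 24.9, 28.1 and 29.2 CPM in mNS, against 39.7, 41.4 and 46.2 CPM in GL261 and fell by 1.55-fold (log2 difference -0.61 ± 0.10 SE, adjusted p = 5.58e-04). Stx16, the syntaxin of the same complex, went the other way and had 99.95, 102 and 96.9 CPM in mNS, against 78, 75.9 and 68.6 CPM in GL261 (log2 difference 0.42 ± 0.07 SE, adjusted p = 8.19e-04). Stx7, a syntaxin of late endosomes, also rose and had 99.4, 87.8 and 92.9 CPM in mNS, against 56.1, 49.5 and 44.5 CPM in GL261 (log2 difference 0.89 ± 0.10 SE, adjusted p = 5.72e-05), while its partner Stx8 had 23.4, 25.7 and 26.8 CPM in mNS, against 26.3, 28.7 and 26.4 CPM in GL261 and was not called (log2 difference -0.099). Within the trans-Golgi set of Stx6, Stx16 and Vamp4 the calls were thus split in direction.

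Rab3 GTPases, which ride on secretory vesicles, and the proteins that switch them are described gene by gene, since no list of them was set. Rab3a, the neuronal form, had 17.5, 18.9 and 19.6 CPM in mNS, against 13.3, 12.3 and 12.4 CPM in GL261, 1.48-fold higher without overlap (log2 difference 0.53 ± 0.10 SE, adjusted p = 0.00148), and Rab3d, the form of exocrine and immune granules, had 25.5, 30.7 and 32.1 CPM in mNS, against 21.3, 19.9 and 19.2 CPM in GL261 (log2 difference 0.52 ± 0.11 SE, adjusted p = 0.00273). Rab3b, with 56 reads in mNS and 7 in GL261, was below the filter, at 1.51, 1.39 and 1.27 CPM in mNS, against 0.298, 0.0747 and 0.144 CPM in GL261. Its mNS libraries lay above those of GL261, and its ratio is 8.07-fold, or 12.7-fold without GL261 replicate 1. Rab3gap2 and Rab3gap1, the subunits of the Rab3 GTPase-activating complex that also acts on Rab18, rose together: Rab3gap2 had 376, 404 and 408 CPM in mNS, against 149, 175 and 188 CPM in GL261 (log2 difference 1.21 ± 0.09 SE, adjusted p = 5.61e-06), and Rab3gap1 had 168, 165 and 159.9 CPM in mNS, against 112, 111 and 112 CPM in GL261 (log2 difference 0.56 ± 0.06 SE, adjusted p = 3.63e-05). Rab3il1, an exchange factor for Rab3a and Rab8, had 5.44, 5.49 and 4.6 CPM in mNS, against 0.373, 0.897 and 1.08 CPM in GL261, 6.6-fold higher (log2 difference 1.81 ± 0.19 SE, adjusted p = 4.66e-05); it passed the filter on low values only through mNS. Rab3ip, its relative for Rab8, was called lower (log2 difference -0.28 ± 0.09 SE, adjusted p = 0.0181) but lost the call under common-sum scaling and without GL261 replicate 3 or mNS replicate 2.

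Rab27a, which docks secretory granules, melanosomes and exosome-bearing endosomes, had 4.45, 1.62 and 1.7 CPM in mNS, against 4.7, 3.81 and 5.42 CPM in GL261. Its mNS library of passage 72 lay within the GL261 range and the groups overlapped. The difference passed narrowly (log2 difference -0.73 ± 0.28 SE, adjusted p = 0.0471), was lost in edgeR's quasi-likelihood test (adjusted p = 0.083) and in DESeq2 (adjusted p = 0.079), and was lost without any GL261 library or without mNS replicate 2 or 3. By mean CPM it was 1.79-fold lower in mNS, or 2.79-fold without mNS replicate 1. Rab37, another Rab of secretory granules, had 0.83, 2.55 and 2.48 CPM in mNS, against 1.34, 0.523 and 0.578 CPM in GL261 and was not called (log2 difference 0.67), with overlapping groups; it passed in the edgeR exact test and without GL261 replicate 1 or mNS replicate 1. Mlph, the melanophilin effector of Rab27a, was at 0 in each mNS library and at 2.76, 1.57 and 2.53 CPM in GL261, on 93 reads, and was called lower (log2 difference -1.70 ± 0.19 SE, adjusted p = 6.99e-05). Of the 5 listed melanocyte and lysosome-related organelle markers, Mlph, Dct and Pmel were called lower in mNS and Mitf and Myo5a were not called. Mlph and Dct passed the filter on low values only through GL261, so no count over these markers is read. The part of these markers in the Rab27a difference was not tested.

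Binding proteins of Rab11 were called in both directions, while neither Rab11a nor Rab11b was called. Rab11a, the GTPase of recycling endosomes, had 71.2, 71.8 and 67.7 CPM in mNS, against 71.1, 75 and 71.6 CPM in GL261 and was not called (log2 difference -0.047, with a sign that changed under common-sum scaling). Rab11b had 27.3, 27.4 and 23.9 CPM in mNS, against 25.9, 28.2 and 30.1 CPM in GL261 and was not called either (log2 difference -0.098). Of their binding proteins, Rab11fip2 had 27.5, 29.7 and 31.9 CPM in mNS, against 8.87, 9.19 and 7.73 CPM in GL261, and Rab11fip4 had 35.4, 24.6 and 20.5 CPM in mNS, against 4.77, 7.03 and 4.55 CPM in GL261. Both rose without overlap, by 3.45-fold (log2 difference 1.68 ± 0.11 SE, adjusted p = 2.67e-06) and 4.92-fold (log2 difference 2.09 ± 0.22 SE, adjusted p = 4.55e-05). Rab11fip3, the close relative of Rab11fip4, fell and had 34.7, 30.7 and 29.9 CPM in mNS, against 39.6, 43.3 and 44.1 CPM in GL261 (log2 difference -0.41 ± 0.09 SE, adjusted p = 0.00376), and Rab11fip5 was not called (log2 difference 0.14). Rab11fip1 lay below the filter, with 59 reads in mNS and 16 in GL261. Rab15, which acts at the endocytic recycling compartment and is best known from neurons, had 4.76, 7.11 and 5.95 CPM in mNS, against 0.895, 0.972 and 0.578 CPM in GL261. All its mNS libraries were higher, 7.29-fold by mean CPM (log2 difference 1.93 ± 0.18 SE, adjusted p = 2.12e-05). Rab15 passed the filter on low values only through mNS, with 33 reads in GL261. Rab10, a GTPase of basolateral export and of GLUT4 vesicles, had 121, 118 and 109 CPM in mNS, against 221, 202 and 187 CPM in GL261, and it fell, 1.76-fold lower in mNS (log2 difference -0.81 ± 0.08 SE, adjusted p = 2.83e-05). Rab8a, its close relative in polarised export, had 81, 77.6 and 87.2 CPM in mNS, against 115, 109.8 and 110.2 CPM in GL261 and fell (log2 difference -0.44 ± 0.07 SE, adjusted p = 4.56e-04), whereas Rab8b had 107, 98.4 and 82.5 CPM in mNS, against 60.3, 73.2 and 62.9 CPM in GL261 and rose (log2 difference 0.54 ± 0.11 SE, adjusted p = 0.00257). The pair thus moved in opposite directions. Of the 12 Rabs of recycling and polarised export, 3 rose, Rab15 among them, 3 fell and 6 were not called. In either direction 50.0% were called, beside 64.3% of all genes. Rab23, one of the falls, lost its call in DESeq2 (adjusted p = 0.064), under common-sum scaling and without GL261 replicate 2 or 3 or mNS replicate 2 or 3.

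**Figure D4:**
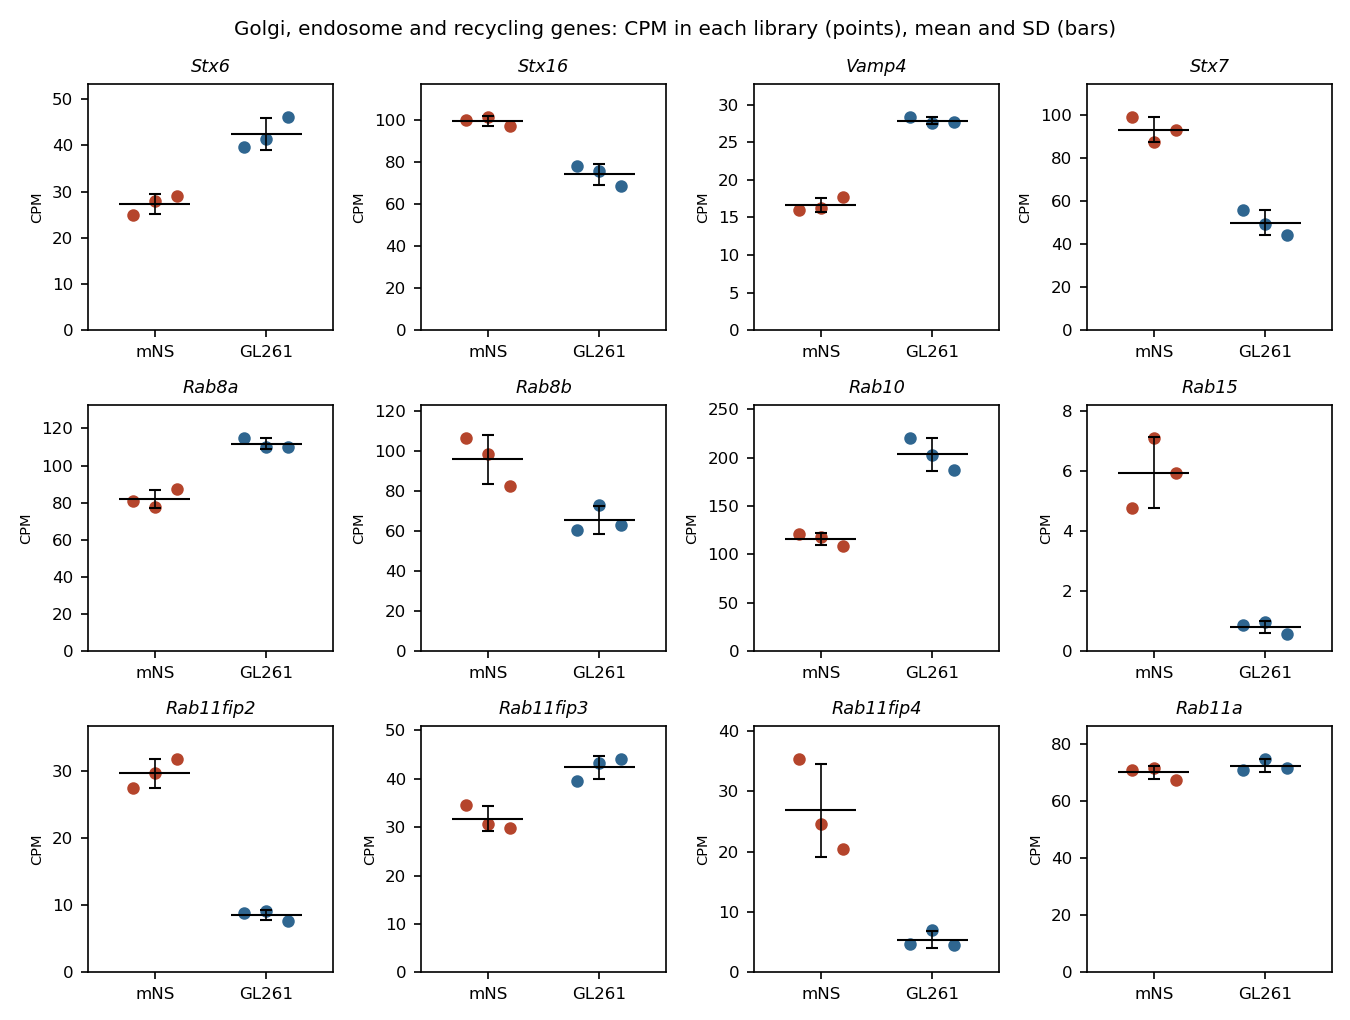
CPM in each library (points, in the order of passage), with the mean and SD (bars), of genes of the Golgi, endosome and recycling routes, mNS left and GL261 right. Rab11a overlaps between the groups, Rab11fip2, Rab11fip4 and Rab15 are higher in all 3 mNS libraries, and Rab10, Vamp4 and Stx6 are lower in all 3.

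Early and late endosome Rabs were mixed as well. Rab5a, the main GTPase of early endosome fusion, had 79.8, 69.7 and 64.8 CPM in mNS, against 72.6, 77.1 and 70.1 CPM in GL261 and was not called (log2 difference -0.041, sign changed under common-sum scaling), and neither were Rab5b (0.019, sign changed under median centring) nor Rab14 (0.0053, sign changed likewise). Rab5c had 159.7, 171 and 162 CPM in mNS, against 186, 193 and 208 CPM in GL261 and was called lower (log2 difference -0.25 ± 0.06 SE, adjusted p = 0.00746), a call lost under common-sum scaling (adjusted p = 0.052) and quantile scaling (adjusted p = 0.0503). Rab31, a Rab of the trans-Golgi network and endosomes, had 218, 229 and 222 CPM in mNS, against 178, 204 and 198 CPM in GL261 and was called higher (log2 difference 0.21 ± 0.07 SE, adjusted p = 0.0228), a call lost without mNS replicate 2 or 3 and in limma without trend. Rab24, which is linked to autophagy, had 49.8, 56 and 54.7 CPM in mNS, against 35.7, 35.8 and 36.9 CPM in GL261 and rose (log2 difference 0.55 ± 0.08 SE, adjusted p = 2.75e-04), whereas Rab21, which acts in integrin endocytosis, had 43, 43 and 38.2 CPM in mNS, against 51.8, 57.9 and 48.8 CPM in GL261 and fell (log2 difference -0.34 ± 0.09 SE, adjusted p = 0.00952). The groups did not overlap for Rab24 or Rab21. Of the 9 early endosome Rabs, 2 were called higher and 3 lower, or 55.6% called, beside 64.3% of all genes. Rab20, a GTPase of endosomes and phagosomes, had 1.81, 1.39 and 2.12 CPM in mNS, against 5.44, 4.04 and 4.62 CPM in GL261 and fell (log2 difference -1.04 ± 0.16 SE, adjusted p = 5.70e-04). Rab32, which works in lysosome-related organelles such as melanosomes, fell most of the Rabs: it had 0.377, 0.773 and 0.496 CPM in mNS, against 3.28, 5.46 and 4.12 CPM in GL261. On 22 reads in mNS and 174 in GL261 it was 7.81-fold lower in mNS, without overlap (log2 difference -1.76 ± 0.19 SE, adjusted p = 6.76e-05). Rab32 passed the filter on low values only through GL261. Rab7, the late endosome GTPase, had 26.6, 32.9 and 35.3 CPM in mNS, against 23.3, 23 and 23.5 CPM in GL261 and rose (log2 difference 0.42 ± 0.11 SE, adjusted p = 0.0103). Rab9, which returns cargo from late endosomes to the Golgi, had 59.2, 54.3 and 56 CPM in mNS, against 74.8, 83.5 and 75.7 CPM in GL261 and fell (log2 difference -0.46 ± 0.07 SE, adjusted p = 6.68e-04), while Rab28 had 69.98, 75.7 and 77.7 CPM in mNS, against 41, 52.3 and 45.1 CPM in GL261 and rose (log2 difference 0.68 ± 0.10 SE, adjusted p = 3.29e-04). The groups did not overlap for Rab7, Rab9 or Rab28. Rab9b, a relative of Rab9 on chromosome X, lay below the filter at 2.57, 1.62 and 1.35 CPM in mNS, against 0.0745, 0.149 and 0.0722 CPM in GL261, on 74 reads in mNS and 4 in GL261. Rab42 and Rab44, also below the filter, had 52 and 65 reads in mNS, against 15 and 14 in GL261; the ratio of Rab44 was 4.64-fold, or 7.30-fold without GL261 replicate 1.

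Of the 13 Rabs of the endoplasmic reticulum and Golgi, 4 rose, 2 fell and 7 were not called. In either direction 46.2% were called, beside 64.3% of all genes. Rab1, the GTPase of transport into the Golgi, had 317, 306 and 283 CPM in mNS, against 389.5, 455 and 377 CPM in GL261 and fell (log2 difference -0.43 ± 0.08 SE, adjusted p = 0.00181), whereas Rab1b had 86.4, 89.2 and 86 CPM in mNS, against 79.5, 81.7 and 84.4 CPM in GL261 and was not called (log2 difference 0.090). Rab6a and its brain-enriched relative Rab6b, which act at the Golgi, both rose: Rab6a had 248, 233 and 207 CPM in mNS, against 146, 157 and 144 CPM in GL261 (log2 difference 0.62 ± 0.08 SE, adjusted p = 1.42e-04) and Rab6b had 19.7, 19.3 and 16.4 CPM in mNS, against 10.4, 7.47 and 10.7 CPM in GL261 (log2 difference 0.90 ± 0.15 SE, adjusted p = 7.88e-04). Rab33b, a Golgi and autophagy GTPase, had 31.9, 33.1 and 28.7 CPM in mNS, against 51.4, 52.2 and 47 CPM in GL261 and fell (log2 difference -0.67 ± 0.09 SE, adjusted p = 1.80e-04). Rab2a and Rab18 were not called, with differences of 0.060 and 0.051 on the log2 scale whose signs changed when 1 library was left out.

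The exocyst, the complex that tethers vesicles at the surface, and its relatives had modest differences. Of their 11 listed genes, 5 rose (Exoc1, Exoc2, Exoc6, Exoc6b and Exoc7), 1 fell (Exoc3l) and 5 were not called, with called rises between 0.34 and 0.61 on the log2 scale. In either direction 54.5% were called, beside 64.3% of all genes. Exoc1 had 139.8, 142 and 132 CPM in mNS, against 84.1, 91.8 and 95 CPM in GL261 (log2 difference 0.61 ± 0.07 SE, adjusted p = 8.05e-05), and Exoc4 had 127, 114 and 109 CPM in mNS, against 124, 120.2 and 122 CPM in GL261 with no call (log2 difference -0.066, sign changed under common-sum scaling). Exoc5 had 157, 144 and 116 CPM in mNS, against 117, 122 and 113 CPM in GL261, with no call (log2 difference 0.23), though it passed under common-sum or quantile scaling and without mNS replicate 3. Exoc3l, a relative of Exoc3 reported in insulin secretion, had 0.528, 0.773 and 0.425 CPM in mNS, against 1.57, 1.49 and 3.03 CPM in GL261 and fell by 3.53-fold (log2 difference -0.91 ± 0.22 SE, adjusted p = 0.00593). Exoc3l passed the filter on low values only through GL261.

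Genes that work with these proteins were read from a second list. Of 108 such genes 85 were listed; 27 rose and 29 fell (65.9% called, beside 64.3% of all genes), with a median log2 difference of -0.020. Among 12 other SNAREs none rose and 6 fell, or 50.0% called, beside 64.3% of all genes. Vti1b was among the falls, and Vti1a was not called. Among 7 genes of the synaptic vesicle membrane on that list, 4 rose and 2 fell (Scamp2 and Sypl), or 85.7% called. Sv2a, one of the rises, passed the filter on low values only through mNS, with 19 reads in GL261, so this count is not read. Scamp1, a membrane protein of secretory carriers, rose and had 169.6, 170.4 and 153 CPM in mNS, against 19.5, 24.6 and 21.5 CPM in GL261 (log2 difference 2.86 ± 0.10 SE, adjusted p = 6.37e-08). Madd, an exchange factor for Rab3 and Rab27, rose and had 28.3, 29 and 29.7 CPM in mNS, against 9.32, 7.62 and 7.15 CPM in GL261 (log2 difference 1.74 ± 0.11 SE, adjusted p = 3.08e-06), and Chml, a Rab escort protein, and Usp6nl, a Rab GTPase-activating protein, rose by 1.60 and 1.23 on the log2 scale. The falls were led by Rims2, a Rab3 effector of the release site (on 2 reads in mNS and 102 in GL261, log2 difference -1.72), Mlph, Rabggta, the alpha subunit of the Rab geranylgeranyl transferase (-1.65), and Tbc1d10a, a GTPase-activating protein for Rab27 (-1.44). Rims2 and Mlph passed the filter on low values only through GL261. Nsf, the ATPase that takes SNARE bundles apart, fell (log2 difference -0.57 ± 0.08 SE, adjusted p = 2.15e-04). Of its cofactors, Napb rose (log2 difference 1.04 ± 0.24 SE, adjusted p = 0.00456). The more abundant Napa and Napg were not called (log2 differences 0.16 and -0.12).

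Within the groups, libraries of different passage differed by more than 2-fold for 7 of the 103 tested genes in mNS and 12 in GL261, not counting Syt7, which had no read in 1 GL261 library. Sytl2 had 10.7 CPM in the GL261 library of passage 17, beside 34.2 and 30.4 CPM at passages 33 and 34. Vamp5 had 4.98, 7.50 and 12.04 CPM at passages 72, 77 and 85 of mNS, and Stx2 had 62.3, 82.0 and 96.0 CPM. Among tested genes with reads in every library, Syt6 had the widest range, 5.51-fold between GL261 libraries, from 1.19 CPM at passage 17 to 6.57 CPM at passage 34. Each passage is 1 library, so these are values without a test.

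Overlap on the genome bears on some of these counts. Of 108 genes, all matched to GENCODE M21 (GRCm38, the assembly of mm10), 31 share exon bases with a gene on the other strand, among them Snap47, Syt7, Syt4 and Rab10, and 8 with a gene on the same strand, most of all Rab43 (75.4% of its exon bases, with Gm45140) and Rab4b (65.0%, with Gm21983). The libraries were made with a stranded kit, but the sources used here do not say whether the counting used strand, so reads of such partners may not be told apart.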

How the data were processed

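RNA was sequenced from 3 mNS and 3 GL261 libraries, made with a stranded, ribosomal RNA-depleted kit and read from 1 end, per the labels' protocols. Per the submitters' processing notes, the build was mm10 and the tools were edgeR 3.4.2, HTSeq 0.5.3p9 and TopHat2 (version 2). The deposited values are a normalised signal in CPM, scaled by the authors with TMM factors per the labels. Reads were recovered by dividing each column by its smallest step, the worth of 1 read: 100% of values gave a whole number, to within 0.001 reads. There were 0 unused columns.

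The test was limma 3.58.1 under R 4.3.3 (a two-sided moderated test with a mean-variance trend). It was fitted to log2(CPM + 1) of every gene whose mean reached 1 CPM, 12006 in all. P-values were adjusted by Benjamini-Hochberg over those genes, and an adjusted p under 0.05 was a call. The test was also run on simulated reads, with far fewer changed genes than were called here and the same spread setting for every gene. That run does not vouch for the calls in these data. Log2 differences are mNS minus GL261, with SE; folds are ratios of mean CPM. Counting intervals (95%, Clopper-Pearson) express counting error alone, because PCR copies are not separate molecules where no molecular identifiers were used. Alternatives were edgeR 4.0.16, DESeq2 1.42.0, other pseudocounts, filters, scalings and thresholds, and leaving out each library.

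The members and lists were chosen with earlier results of these data known. Library values are given for the called genes without overlap that reach 2 CPM in their higher group, taking the 12 that rose most and the 12 that fell most, for the 2 most abundant genes of each family and a fixed core; others are given where relatives or partners are described, chosen after their values were seen. CPM per kb uses the longest basic coding transcript of GENCODE M21. Stxbp3b was added to its family list after the table was seen. Tables and plots were made in Python 3.11.15 with pandas 2.3.3, scipy 1.17.1 and matplotlib 3.10.9. Some items are not reported here.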

Additional observations from a re-analysis of the deposited data

How the results depend on the processing

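No paired analysis was possible because the labels give passages and no replicate numbers shared between the groups. Direction and call of 55 of the 63 called genes held under all of 11 settings (other tests, pseudocounts, scalings and filters), and 56 kept the call without each library in turn. No called gene changed sign under any setting tried, and 19 uncalled genes did under at least 1. Tested against a 2-fold change, limma called 11 of the 103 trafficking genes (9 higher, 2 lower), beside 1414 of all 12006 genes. It called 4 of 16 genes of neuronal exocytosis, 7 of 80 of general traffic and 7 of 85 partner genes. For other regulated secretion that limma test called 0 of 7 genes. Against no change, all 7 had an unadjusted p under 0.05 in limma, as did 8115 of all 12006 tested genes. Neuronal exocytosis and other regulated secretion counted together gave 16 calls in 23 tested genes (12 higher, 4 lower), or 69.6%, beside 64.3% of all genes. Syt1, Syt7, Syn2 and Rab37 passed the filter on low values only through mNS and Syt17 only through GL261. Counts over these classes therefore describe only the genes tested. Without each library in turn, calls numbered 57 to 65 for the trafficking genes and 43 to 48 for general traffic, and 10 each time for neuronal exocytosis. Scaling to a common sum moved the median of all genes by 0.084 and gave 47 higher and 17 lower trafficking genes, beside 4456 higher and 3198 lower over all genes.

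Signs changed for uncalled genes, and the cause was not tested; values are log2 differences. With columns scaled to a common sum, the values were Exoc4 at 0.025, Rab11a at 0.043, Rab2b at 0.044, Rab34 at 0.067, Rab5a at 0.049 and Stx4a at 0.011. Quantile scaling gave Rab13 at -0.056, Rab34 at 0.050, Stx18 at -0.0080, Stxbp4 at -0.019, Syt12 at -0.012, Syt6 at -0.19 and Vamp1 at -0.012. Median centring gave Rab14 at -0.018, Rab5b at -0.0041, Stx18 at -0.013 and Syt6 at -0.017. For Syt6, DESeq2 gave -0.16 and edgeR -0.18 by quasi-likelihood and -0.17 by the exact test. Leaving out each library in turn put Rab14 between -0.054 and 0.065, Rab18 between -0.033 and 0.15, Rab2a between -0.030 and 0.13, Rab2b between -0.18 and 0.056, Rab4b between -0.22 and 0.012, Rab5a between -0.12 and 0.026, Rab5b between -0.029 and 0.073, Stx18 between -0.0094 and 0.028, Stx5a between -0.077 and 0.11, Syn1 between -0.29 and 0.054, Syt12 between -0.036 and 0.40 and Syt6 between -0.51 and 0.38.

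Depth limits genes near a few reads, such as Syt7, Syn2 and Rab3il1 in GL261 and Syt17 and Rab32 in mNS, whose log2(CPM + 1) differences understate the ratio. With 3 libraries in each group, an exact permutation test on a single gene could not pass the threshold, and the calls rely on the spread that limma shares over genes.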
